A study of Homo sapiens with 7 samples.

Results

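Regions at 2 tight junction loci on human chromosome 1, near F11R and inside CGN, were read in a lentiviral reporter assay of candidate regulatory sequences. The F11R region starts 282 bp beyond the higher-coordinate end of the gene body of F11R (chr1:161021434-161026093, hg38). The CGN region overlaps the CGN gene body (chr1:151525832-151527830, hg38). Members were the constructs whose names placed them in either region. This gave 22 of 1383 constructs, in 2 of 380 regions. Of them, 11 of 358 constructs compared wild-type with scrambled sequence and 11 of 1025 compared mutant with wild-type sequence. The loci were selected on their wild-type values in these data, which were known beforehand, so those values are a description and support nothing here. The mutant values use the same wild-type reads, so they are not independent of that selection and are described likewise. All libraries came from C4-2B, an established human prostate cancer line of epithelial type, transduced with 1 barcoded library and sampled after 48 hours. The 3 gDNA and 3 RNA libraries, plus 1 that links barcodes to sequences, make 7 in all, with no treatment or genotype that differs between them. Because the reporter sits in the cell's chromosomes at sites of viral integration, a value describes the cloned sequence and not the native gene.

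Tight junctions seal the space between neighbouring epithelial cells and separate the apical from the basolateral membrane. F11R encodes junctional adhesion molecule A, a transmembrane protein of the immunoglobulin superfamily that binds its own kind on the next cell and recruits polarity proteins to new contacts. CGN encodes cingulin, a cytoplasmic adaptor that binds ZO-1 and links the junction to actomyosin. A region is named here by its overlapping or nearest protein-coding gene, which does not state that it controls that gene.

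Each estimate is taken here as a natural log odds ratio that sets RNA against gDNA reads, so 0 means no difference. It is printed ± the standard error implied by the authors' z value. A construct is called higher or lower where the authors' adjusted p (Benjamini-Hochberg over the whole table) was under 0.05. The tables hold 1 value per construct with the replicates already combined, so depth and replicate spread are unknown, and errors and intervals cover the authors' model only. The z values spread more widely than a standard normal, with robust SDs of 4.12 for wild-type constructs and 3.92 for mutants. Each SD is taken over all constructs of its comparison, where 62.3% of wild-type constructs and 56.6% of mutants were called. It may therefore hold effects as well as errors. Counts of calls after z is scaled by it cannot tell understated errors from real effects.

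The F11R region is 4660 bp long and held 8 tested sites, numbered here along the chromosome. Site 1, a deletion, lay 1343 bp before site 2, while sites 2, 3, 4 and 5 followed each other at distances of 6, 3 and 21 bp. Sites 6, 7 and 8 came 148, 146 and 406 bp further on, and all 8 spanned 2073 bp. Site 1 was present in the mutant table only and site 6 in the wild-type table only. The CGN region is 1999 bp long, begins 14445 bp after the CGN start site of the RefSeq promoter table (GRCh38.p14), and held 4 sites in both tables. Its sites 1 and 2 lay 7 bp apart, site 3 lay 534 bp further on and site 4 another 61 bp. Each wild-type construct carries the name of the site it belongs to. The length of the constructs and their placing around the site are not stated in the sources used. How much sequence the constructs of close sites share is therefore not known. Whether close sites share a scrambled counterpart is not stated either, so a difference between their wild-type values may include a difference between scrambled sequences.

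Wild-type F11R constructs ran from strongly active to slightly below scrambled sequence. Site 7 was the most active, at 1.42 ± 0.11 by the authors' deposited table, or 4.13-fold higher odds (adjusted p = 3.2e-36). Site 2 followed at 1.01 ± 0.12 by the authors' deposited table, or 2.76-fold (adjusted p = 1.07e-15). Site 4 was called higher at 0.42 ± 0.11 and site 5 at 0.15 ± 0.07 by the authors' deposited table, or 1.52- and 1.16-fold. Site 3 was called lower at -0.20 ± 0.09 by the authors' deposited table (adjusted p = 0.0438). Sites 6 and 8 were not called, at -0.36 ± 0.19 and -0.20 ± 0.10 by the authors' deposited table (adjusted p = 0.0927 and 0.0763). High activity in the F11R region thus stood mainly at 2 of its 7 wild-type constructs, and these were not neighbours: sites 3 to 6 lay between them. In size, site 7 exceeded 92.4% of wild-type estimates of the series and site 2 exceeded 87.5%, while site 5 exceeded 25.8%.

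Of the 7 F11R wild-type constructs 4 were called higher, 1 lower and 2 neither, where 62.3% of all wild-type constructs were called, 34.1% higher and 28.2% lower. The calls at sites 3 and 5 had adjusted p of 0.0438 and 0.0441 by the authors' deposited table, just inside the threshold. With Bonferroni adjustment 3 calls were kept, at sites 2, 4 and 7. The share kept over the series is not given, so no background stands beside this count. With z scaled by its robust SD none was called, where only 4 of all 358 wild-type constructs of the series were. The smallest adjusted p in the F11R region under this scaling, that of site 7, was 0.0921.

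Close F11R sites differed widely as wild-type constructs. From site 2 to site 3, 6 bp apart, the estimate fell by 1.21 on the natural log scale (95% interval -1.50 to -0.92), a 3.35-fold change of odds. From site 3 to site 4, 3 bp apart, it was 0.61 higher (95% interval 0.34 to 0.89). Between sites 4 and 5 the difference was -0.27 (95% interval -0.52 to -0.02). The step from site 6 up to site 7 was 1.78 (95% interval 1.34 to 2.21), and that from site 7 down to site 8 was -1.62 (95% interval -1.91 to -1.32). Of the 21 pairs of F11R wild-type constructs, which reuse the same 7, 18 had an interval of the difference that left out 0. Among F11R mutants 6 of 21 pairs did. Over the series only neighbouring pairs were counted. Of those more than 10 bp apart, 143 of 219 wild-type pairs and 299 of 480 mutant pairs had such an interval. Of mutant pairs 1 to 10 bp apart, 94 of 145 did. The F11R counts take in every pair of sites, neighbouring or not, so the series counts are not a like measure. Differences between close sites of the size seen at F11R were not particular to it. Over the series, 41 pairs of neighbouring wild-type constructs lay 1 to 10 bp apart, with a median difference of 0.38 in size, and the interval left out 0 in 23 of them. The step from site 2 to site 3 was larger than 80.5% of those pairs and that from site 3 to site 4 larger than 58.5%.

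No F11R mutant was called higher than wild-type, and 3 were called lower. Site 7, an A-to-G change in the most active construct, stood at -0.55 ± 0.07 against wild-type by the authors' deposited table, or 1.73-fold smaller odds (adjusted p = 4.01e-12). The T-to-C change at site 8 was called lower at -0.30 ± 0.05 by the authors' deposited table, or 1.36-fold (adjusted p = 1.03e-07). The G-to-C change at site 5 was called lower at -0.37 ± 0.08 by the authors' deposited table, or 1.45-fold (adjusted p = 9.62e-06). These 3 sites are the last 3 along the chromosome that the mutant table holds for F11R. The mutants at the other 4 sites were not called. The deletion at site 1 stood at -0.25 ± 0.15 by the authors' deposited table (adjusted p = 0.149). The G-to-A change at site 2, in the second most active construct, stood at 0.16 ± 0.27 by the authors' deposited table (adjusted p = 0.638). Its 95% interval, -0.37 to 0.69, held changes of either direction. The C-to-A change at site 3 and the C-to-G change at site 4 stood at 0.12 ± 0.11 and 0.15 ± 0.27 by the authors' deposited table (adjusted p = 0.372 and 0.661).

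Of 7 F11R mutants, 0 were called higher, 3 lower and 4 neither, where 56.6% of all mutants were called, 29.5% higher and 27.1% lower. At an unadjusted p under 0.05 no further F11R mutant passed, and with Bonferroni adjustment the same 3 calls were kept. The Bonferroni count again stands without a series share. With z scaled by its robust SD none was called, where only 2 of all 1025 mutants of the series were. The smallest adjusted p among F11R mutants under this scaling was 0.972. The effects of the mutations at the close sites 2, 3 and 4 could not be told apart at their errors, with a difference of -0.04 from site 2 to site 3 (95% interval -0.62 to 0.53) and of 0.03 from site 3 to site 4 (95% interval -0.54 to 0.61). The SD over the 7 mutant estimates was 0.29, and 26.9% of the 145 regions with at least 3 mutants had a smaller one, against 0.67 over the 7 wild-type estimates.

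The mutant and wild-type values of a site both use its wild-type reads, so they are set side by side and not correlated. Added together they place the mutant against scrambled sequence if the scale is additive across the 2 comparisons, which is assumed here and was not tested. The standard error is then at most that of the 2 errors added in quadrature. At F11R site 7 the mutant then stood at 0.87 (widest 95% interval 0.61 to 1.13) against 1.42 for wild-type, or 2.39- against 4.13-fold over scrambled sequence, so both stood above scrambled sequence. At site 2 the mutant stood at 1.18 (widest 95% interval 0.60 to 1.76) beside 1.01 for wild-type. At site 5 the sum was -0.22 (widest 95% interval -0.42 to -0.02) beside 0.15, below scrambled sequence. At site 8 it was -0.50 (widest 95% interval -0.73 to -0.28) beside -0.20. At site 4 the sum was 0.57 (widest 95% interval 0.00 to 1.14) and at site 3 it was -0.08 (widest 95% interval -0.36 to 0.21). Over the 6 sites in both tables the mutants spanned 1.68 and the wild-type constructs 1.62.

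Wild-type CGN constructs were mostly at or below scrambled sequence, with 1 exception. Site 1 was called higher at 0.72 ± 0.16 by the authors' deposited table, or 2.05-fold (adjusted p = 4.68e-05). Site 2, 7 bp further on, was called lower at -1.64 ± 0.34 by the authors' deposited table, or 5.17-fold smaller odds (adjusted p = 8.17e-06). Site 3 was called lower at -0.21 ± 0.07 by the authors' deposited table, or 1.24-fold (adjusted p = 0.00294). Site 4 had no call by the authors' deposited table at -0.12 ± 0.08 (adjusted p = 0.202). The CGN counts were thus 1 higher, 2 lower and 1 neither of 4, beside 34.1% higher and 28.2% lower among the 62.3% of all wild-type constructs that were called. Bonferroni adjustment kept sites 1 and 2, again without a series share beside the count. With z scaled by its robust SD none was called, where only 4 of all 358 wild-type constructs were. The smallest adjusted p in the CGN region under this scaling was 0.962.

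The 2 CGN sites that lay closest together were the furthest apart in wild-type activity against scrambled sequence. From site 1 to site 2 the wild-type estimate fell by 2.36 (95% interval -3.11 to -1.61), a 10.6-fold change of odds. This was the largest difference among the 41 neighbouring wild-type pairs 1 to 10 bp apart in the series. Site 2 had the larger standard error, 0.34, which was above that of 89.7% of wild-type constructs. Sites 3 and 4, 61 bp apart, differed by 0.10 (95% interval -0.10 to 0.30). The SD of the CGN wild-type estimates, 0.98, was above that of 80.0% of the 60 regions with at least 3 wild-type constructs, whose median SD was 0.49.

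All 4 CGN mutants were called, 3 higher and 1 lower than wild-type. The A-to-C change at site 2, in the least active construct, stood at 1.59 ± 0.36 by the authors' deposited table, or 4.89-fold higher odds (adjusted p = 3.52e-05). Its standard error was above that of 91.5% of mutants. This value and the wild-type value of -1.64 share wild-type reads with opposite sign. An error in those reads would move both, and its share was not tested. The C-to-T change at site 1, in the most active construct, was called higher at 0.67 ± 0.10 by the authors' deposited table, or 1.96-fold (adjusted p = 1.69e-09). The A-to-G change at site 3 was called higher at 0.49 ± 0.06 by the authors' deposited table, or 1.63-fold (adjusted p = 3.29e-14). The A-to-G change at site 4 was called lower at -0.94 ± 0.19 by the authors' deposited table, or 2.56-fold smaller odds (adjusted p = 3.3e-06). The 4 CGN calls stood where 56.6% of all mutants were called. Bonferroni adjustment kept all 4, again without a series share beside the count. With z scaled by its robust SD none was called, where only 2 of all 1025 mutants were. The smallest adjusted p among CGN mutants under this scaling, that of site 3, was 0.896.

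Mutants with the same kind of change were called in opposite directions 61 bp apart in CGN. The A-to-G mutants of sites 3 and 4 differed by -1.43 (95% interval -1.82 to -1.04), while their wild-type constructs did not differ beyond their errors. The A-to-G change at F11R site 7 and the T-to-C change at F11R site 8, which is the same change read on the other strand, were both lower. Over the series, 322 mutants carried an A-to-G or T-to-C change, of which 99 were called higher and 86 lower. The mutants of CGN sites 1 and 2, 7 bp apart, were both called higher and differed by 0.92 (95% interval 0.18 to 1.65). The SD of the 4 CGN mutant estimates, 1.05, was above that of 92.4% of the 145 regions with at least 3 mutants.

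Placed against scrambled sequence by the sum of both values, the CGN mutants stood by estimate in another order than their wild-type constructs. Site 1 was highest in both, and wild-type sites 3 and 4 did not differ beyond their errors. The site 1 mutant stood highest, at 1.39 (widest 95% interval 1.01 to 1.77), or 4.01-fold over scrambled sequence beside 2.05-fold for its wild-type. The site 2 mutant stood at -0.06 (widest 95% interval -1.03 to 0.92) beside -1.64, a level that could not be told from scrambled sequence. The site 3 mutant crossed from below to above scrambled sequence, at 0.28 (widest 95% interval 0.10 to 0.45) beside -0.21. The site 4 mutant stood lowest, at -1.06 (widest 95% interval -1.46 to -0.65) beside -0.12. By estimate, the lowest CGN construct was therefore that of site 2 among wild-type sequences and that of site 4 among mutants. The widest intervals of the site 2 and site 4 mutants overlapped, so the order of these mutants is not settled.

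The regions are summarised by means weighted by the inverse squared errors, with an error that covers the authors' model only. The F11R wild-type mean was 0.28 ± 0.04 and the CGN wild-type mean was -0.13 ± 0.05. The mutant means were -0.31 ± 0.03 for F11R and 0.45 ± 0.05 for CGN. Other summaries moved these values without a change of sign. The F11R wild-type median was 0.15, the CGN wild-type unweighted mean was -0.31 and the F11R mutant unweighted mean was -0.15. Of the 60 regions with at least 3 wild-type constructs, 85.0% had a lower wild-type mean than F11R and 23.3% a lower one than CGN. Of the 145 regions with at least 3 mutants, 11.7% had a lower mutant mean than F11R and 95.9% a lower one than CGN. A single construct, CGN site 3, carried 67.5% of the weight of the CGN mutant mean and 52.9% of that of the CGN wild-type mean. Counting also estimates beyond 10 in size, which the means leave out, 37 of 61 regions with at least 3 wild-type constructs held calls in both directions, F11R and CGN among them. For mutants this was 74 of 149 regions, with CGN among them and F11R not.

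The regions whose wild-type values were most like these, by the distance between their medians and SDs among 58 other regions with at least 3 wild-type constructs, were those at CIAO3, LIMA1 and IL3RA for F11R and those at ZNF276, TDRD9 and HYAL1 for CGN. The CIAO3 region had a median of 0.12 and an SD of 0.70 over 4 constructs, beside 0.15 and 0.67 for F11R. The ZNF276 region had a median of -0.11 and an SD of 1.03 over 4 constructs, beside -0.16 and 0.98 for CGN.

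Among 59 genes of tight junctions, cell polarity and adherens junctions, 4 were the overlapping or nearest gene of a tested region: F11R, CGN, MARVELD2 and MPDZ. MARVELD2 encodes tricellulin, the protein of contacts between 3 cells, and its region lay 1877 bp from the gene (chr5:69446207-69446323, hg38). Of its 2 mutants, the T-to-C change was called lower at -0.21 ± 0.09 by the authors' deposited table (adjusted p = 0.0401), while for the C-to-T change, at 0.24 ± 0.15, no call was made (adjusted p = 0.163). MPDZ encodes a scaffold with many PDZ domains, and the C-to-T mutant inside it had no call by the authors' deposited table at -0.16 ± 0.08 (adjusted p = 0.101). Over the list 14 mutants gave 3 higher calls, 5 lower and 6 neither, or 57.1% called beside 56.6% of all mutants, with a median of -0.02 beside 0.02 for all mutants. Without F11R and CGN the list held 3 mutants, with 0 called higher and 1 lower. The 11 wild-type constructs of the list were those of F11R and CGN, with 5 higher, 3 lower and 3 neither, or 72.7% called beside 62.3% of all, and a median of -0.12 beside 0.01 for all wild-type constructs.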

How the data were processed

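Candidate sequences were cloned with barcodes, delivered to C4-2B cells by lentivirus and read in gDNA and RNA of the same cells, per the labels' protocols. The submitters' processing notes name Bowtie2 and hg38, with no role or version. The authors deposited 2 tables of comparisons. The column headers name a logit model but not the scale, and the authors' estimate is taken here as a natural log odds ratio. Beside it the authors deposited the model's z, a score, its p-value and its q-value. A recomputed normal p (two-sided) of z equalled the deposited p, and its Benjamini-Hochberg adjustment within a table equalled q. The direction was read from the tables' names. Barcode filters, construct length and the scrambled sequences are not stated in the sources used, and depth per library is unknown.

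Standard errors are the estimate over z, folds are exponentials, and 95% intervals of differences add errors in quadrature (Python 3.11.15, numpy 2.4.6, scipy 1.17.1). Estimates beyond 10 in size, 5 wild-type and 13 mutant, were left out of percentiles and region summaries. Region starts were raised by 1 base to count from 1. Gene bodies came from RefSeq's gene table of GRCh38.p14, and the CGN start site and strand from its promoter table. The gene table gives no strand or exons, so exon, intron and UTR were not resolved. Members and lists were chosen with earlier results of these data known. Every construct of both regions is named by its order along the chromosome. Likest regions were the 3 nearest in median and SD. Alternatives were Bonferroni adjustment, z scaled by its robust SD, a limit of 0.5 on the standard error, and unweighted means or medians. Positions and sequences of mutations are not reported here.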

Additional observations from a re-analysis of the deposited data

How the results depend on the processing

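The calls of both regions rest on the errors of the authors' model. The z values were scaled by their robust SD and put to the two-sided normal test with Benjamini-Hochberg adjustment. This called 0 of 7 wild-type and 0 of 7 mutant constructs of F11R, and 0 of 4 of each at CGN. Over the whole series it called only 4 of 358 wild-type and 2 of 1025 mutant constructs, so these zero counts are not particular to the 2 regions. Because the robust SD may hold effects as well as errors, these counts do not show whether the authors' calls are fragile. At an unadjusted p under 0.05 the same scaling passed 2 F11R wild-type constructs and 1 CGN mutant, and 0 CGN wild-type constructs and 0 F11R mutants. Bonferroni adjustment left 3 of 5 wild-type calls at F11R and 2 of 3 at CGN, and all mutant calls. The share over the series is given neither for Bonferroni adjustment nor for the unadjusted scaled p, here or above. No background therefore stands beside these counts. Leaving out constructs with a standard error above 0.5 changed none of the 4 counts of calls and none of the 4 means, since no construct of either region was above that limit. The F11R wild-type summary moved from a weighted mean of 0.28 to a median of 0.15, and its mutant summary from -0.31 to an unweighted mean of -0.15. For CGN the wild-type summary moved from -0.13 to an unweighted mean of -0.31, and the mutant summary from 0.45 to a median of 0.58. None of these summaries changed sign. The summaries of a region use the same estimates and differ only in how these are weighted or ranked. No paired analysis was possible because the tables hold no values per replicate. For the same reason no replicate could be left out.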
